A study of Mus musculus with 6 samples.

Results

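The enzymes of the methionine cycle and of transsulfuration were examined in primary hepatocytes of alcohol-fed mice with both copies of *S100a16* or with 1 copy deleted. The 9 genes were *Mat1a*, *Gnmt*, *Bhmt*, *Bhmt2*, *Ahcy*, *Pemt*, *Mtr*, *Cbs* and *Cth*, picked by gene name. All 9 were found, among 25718 genes in the table, and all 9 passed the filter on low counts that left 15957 genes to be tested. RNA sequencing compared 3 libraries of WT mice with 3 of S100a16KO+/- mice. These heterozygotes, called S100A16 knockdown in the sample labels, arose from a floxed allele of exons 2 to 3 crossed with EIIa-Cre mice, so the deletion was not limited to hepatocytes, and the background was almost wholly C57BL/6; homozygous loss was lethal. Both groups were males of 8 to 10 weeks that received a control liquid diet for 5 days, a diet with 5% ethanol for 10 days and a single gavage of 5 g/kg ethanol, with collection after 9 h in the feeding protocol; no group without alcohol was sequenced. The labels do not say whether each library came from a separate animal, so the p values measure the spread between these libraries.

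The methionine cycle turns methionine into S-adenosylmethionine, the methyl donor of most cellular methylation, and then into S-adenosylhomocysteine and homocysteine. Homocysteine is either remethylated to methionine, with betaine or methyl-folate as the methyl source, or drawn into transsulfuration, which makes cystathionine and then cysteine for glutathione and taurine. The liver is a main site of methionine metabolism, and loss of S-adenosylmethionine and a rise of homocysteine are long-known features of alcohol-induced liver injury.

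*Bhmt*, which encodes the betaine-homocysteine methyltransferase, was the member with the largest difference between genotypes, 2.35-fold lower in S100a16KO+/- hepatocytes. *Cth*, which encodes cystathionine gamma-lyase, the second enzyme of transsulfuration, was 1.63-fold higher. *Cbs* and *Bhmt2* fell and *Pemt* rose by less than 1.2-fold each. *Mat1a*, *Gnmt*, *Ahcy* and *Mtr* did not pass the test. In all, 2 members rose and 3 fell at an adjusted p under 0.05 (edgeR quasi-likelihood test with Benjamini-Hochberg adjustment over all tested genes). By the same rule 22.8% of all tested genes differed, with 11.6% of tested genes higher and 11.2% lower in S100a16KO+/- hepatocytes. The share was 48.4% among the 2781 genes that averaged 32 CPM or more (CPM are counts per 1000000, with library totals scaled by TMM), as 8 of the 9 members did. The count of 5 of 9 members is to be read against that share. It was 3 (*Bhmt*, *Cbs* and *Cth*) without WT replicate 2, without WT replicate 3 or without S100a16KO+/- replicate 1. A call together with a log2 fold change of -1 or lower, as *Bhmt* had, was made for 1.24% of tested genes. By the criterion named in the study, an unadjusted p under 0.05 with at least a 2-fold difference, 1 member (*Bhmt*) and 4.52% of tested genes were called. The p was here that of edgeR, while the study used DESeq2. The CPM values of the genotypes did not overlap for 7 members, all but *Mat1a* and *Gnmt*, and for 37.9% of tested genes. In bulk RNA, fewer cells of a type and less RNA per cell cannot be told apart.

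The genes *Bhmt* and *Bhmt2* are shown first by sequence, because these neighbouring paralogs differed in the size of their change. Both lie on the minus strand of chromosome 13 of GRCm38, *Bhmt* from 93616675 to 93637961 and *Bhmt2* from 93655720 to 93674302, with 17758 bases and no gene of the table between them. Their coding sequences of 1221 and 1089 bases were 75.4% identical over 1088 aligned bases. The longest run they share is the 59 bases below, which lie in exon 7 of both genes, at chr13:93620181-93620239 in *Bhmt* and at chr13:93662401-93662459 in *Bhmt2*. It is shown because fragments that fall within it cannot be assigned by sequence to 1 of the 2 genes.
shared run of Bhmt and Bhmt2: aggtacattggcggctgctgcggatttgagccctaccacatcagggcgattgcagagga

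The promoter windows of the same 2 genes run from 250 bases before to 50 bases after the start in RefSeq (GRCm38.p6, minus strand). These windows were not aligned to each other. They span chr13:93637709-93638008 for *Bhmt* and chr13:93674253-93674552 for *Bhmt2*, and are written 5′ to 3′ in the direction of the gene. Capitals mark matches, on either strand, to the motifs searched. These were the CCAAT box (present in 37.4% of all windows of this length), the TATA box written TATAAA (13.6%), the GC box written GGGCGG, the E-box written CACGTG (7.15%), the core of the cAMP response element written TGACG (20.8%), the composite element for ATF4 with C/EBP factors written TGATGNAA (3.97%), and the site shared by many nuclear receptors written AGGTCA. The TATA box, the E-box, the cAMP response core and the composite element had no match in either window shown. The *Bhmt2* window reaches into *Dmgdh*, which starts at base 93674433 on the opposite strand.
Bhmt promoter: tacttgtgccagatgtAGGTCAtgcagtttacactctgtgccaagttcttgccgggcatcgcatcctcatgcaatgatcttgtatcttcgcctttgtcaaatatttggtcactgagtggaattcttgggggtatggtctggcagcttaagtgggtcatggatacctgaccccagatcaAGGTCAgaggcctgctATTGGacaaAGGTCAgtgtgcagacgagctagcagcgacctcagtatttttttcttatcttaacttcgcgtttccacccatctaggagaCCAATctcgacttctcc
Bhmt2 promoter: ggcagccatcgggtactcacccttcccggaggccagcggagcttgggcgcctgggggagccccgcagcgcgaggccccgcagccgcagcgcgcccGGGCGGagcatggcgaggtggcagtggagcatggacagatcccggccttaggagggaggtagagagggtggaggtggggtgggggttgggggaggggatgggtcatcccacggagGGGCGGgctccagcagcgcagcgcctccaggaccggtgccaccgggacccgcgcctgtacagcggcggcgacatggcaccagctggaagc

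The *Bhmt* window held 3 copies of AGGTCA, at bases 17 to 22, 179 to 184 and 204 to 209 counted from its 5′ end, and CCAAT or its complement at bases 195 to 199 and 284 to 288. Of 32851 promoter windows of the same length, 16.3% held AGGTCA at least once, and 60 windows, or 0.183%, held it 3 or more times. The *Bhmt2* window held GGGCGG at bases 96 to 101 and 211 to 216, which 35.7% of windows held at least once and 19.5% at least 2 times. The minimum numbers of 3 and 2 are those found in these 2 windows, so the shares are a description and not a test. Its GC content was 73.7%, against 48.0% for *Bhmt* and a median of 52.7% over all windows. No match overlapped another in these 2 windows. Matched letters describe the sequence and do not show that a factor binds there. RefSeq windows were matched for 7 of the 9 members, not for *Mat1a* and *Cth*.

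The targeted gene was lower in every S100a16KO+/- library, at 5.08 to 6.25 CPM against 14.7 to 16.2 CPM in WT (log2 fold change -1.40, standard error 0.11, adjusted p = 4.14e-07). Library totals ran from 67658095 to 71807834 estimated counts, and 1 sequenced fragment appeared to stand for about 4 counts. WT replicate 1 and S100a16KO+/- replicate 2 stood apart from the other libraries on the second principal component (12.8% of the variance) and held the largest shares of mitochondrial transcripts, 21.1% and 20.1%, against 17.0% to 18.6% in the rest. Without both of these libraries the same counts were obtained for the members, 2 higher and 3 lower, and the log2 fold changes of *Bhmt* and *Cth* were -1.21 and 0.73. The summed level of 6 hepatocyte markers was 108209 to 120269 CPM in WT and 104952 to 116765 CPM in S100a16KO+/- libraries, most of it from *Alb*, and 2 of the 6 fell (*Ttr* and *Cyp2e1*, each with a log2 fold change of -0.33). The lists of cholangiocyte and of lymphocyte and neutrophil markers summed to 3.54 to 6.43 CPM. Of these, *Sox9* fell (log2 fold change -0.97, adjusted p = 0.00643) and no other marker was called. Markers of other cells moved with genotype: 5 of 5 erythroid markers fell (sum of 214.8 to 252.2 CPM in WT and 23.4 to 26.3 CPM in S100a16KO+/-), 5 of 6 sinusoidal endothelial markers rose and 1 fell (173.9 to 185.1 and 247.3 to 254.8 CPM), 3 of 6 stellate markers rose (35.7 to 38.6 and 63.7 to 71.1 CPM) and 2 of 8 macrophage markers rose (130.8 to 154.3 and 147.0 to 161.8 CPM). Beside these counts, the share called was 22.8% over all tested genes and 48.4% over those that averaged 32 CPM or more. No marker of these lists was at 0 in all libraries. Their part in the results was not tested.

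The transcript of the S-adenosylmethionine synthetase did not pass the test. *Mat1a* (ENSMUSG00000037798, chromosome 14 from 41105035 to 41124412, plus strand) encodes the methionine adenosyltransferase of adult liver. Its level was 3925, 3973 and 3954 CPM in the WT libraries and 3814, 3806 and 3936 CPM in the S100a16KO+/- libraries. The 2 genotypes overlapped, and the means of 3951 ± 23.8 and 3852 ± 72.7 CPM (SD, n = 3 each) gave a log2 fold change of -0.04 with a 95% interval from -0.12 to 0.05 (adjusted p = 0.592). In percent of the WT level the interval ran from -8.17% to 3.52%. With upper-quartile scaling the sign was not kept (log2 fold change 0.000285).

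Of the methyltransferases that consume S-adenosylmethionine, *Pemt* rose and *Gnmt* did not pass the test. *Gnmt* (ENSMUSG00000002769, chromosome 17 from 46725664 to 46729168, minus strand) encodes glycine N-methyltransferase, which disposes of surplus methyl groups as sarcosine. It stood at 1370.3, 1329 and 1356 CPM in WT and at 1307, 1326 and 1353 CPM in S100a16KO+/- hepatocytes, with overlapping ranges. Its log2 fold change was -0.03 with a 95% interval from -0.12 to 0.07 (adjusted p = 0.742), and 0.01 with upper-quartile scaling.

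*Pemt* (ENSMUSG00000000301, chromosome 11 from 59970614 to 60046485, minus strand) encodes phosphatidylethanolamine N-methyltransferase, the liver enzyme that makes phosphatidylcholine from phosphatidylethanolamine by successive methylations. The WT libraries had 309.7, 277.5 and 286.9 CPM and the S100a16KO+/- libraries 327.0, 359.6 and 311.6 CPM. The ranges did not overlap, with WT replicate 1 and S100a16KO+/- replicate 3 nearly at the same level. The call on its rise of 0.19 on the log2 scale (standard error 0.06, adjusted p = 0.0375) was lost on leaving out any of 4 single libraries, WT replicate 2 or 3 or S100a16KO+/- replicate 1 or 2 (adjusted p from 0.0803 to 0.171).

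*Ahcy* (ENSMUSG00000027597, chromosome 2 from 155059310 to 155074497, minus strand) encodes S-adenosylhomocysteine hydrolase, which releases homocysteine. Levels were 1458, 1407 and 1445 CPM in WT and 1528, 1567 and 1537 CPM in S100a16KO+/- hepatocytes. All 3 S100a16KO+/- values lay above the WT values, yet the log2 fold change of 0.10 (standard error 0.04) did not pass the edgeR test after adjustment (adjusted p = 0.0968). It did pass with upper-quartile scaling (0.14, adjusted p = 0.0281) and when genes under 4 CPM were left out (0.13, adjusted p = 0.0302). The value is uncertain, since 71.4% of the 31-base words of *Ahcy* transcripts occur in transcripts of other genes, most of them in *Gm4737*. That gene was listed with 22722 to 25759 counts in WT and 24123 to 26352 in S100a16KO+/- libraries, against 98875 to 110725 for *Ahcy* over all libraries. With the counts of 3 such copies added to *Ahcy*, the log2 fold change was 0.10 (adjusted p = 0.120).

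**Figure D1:**
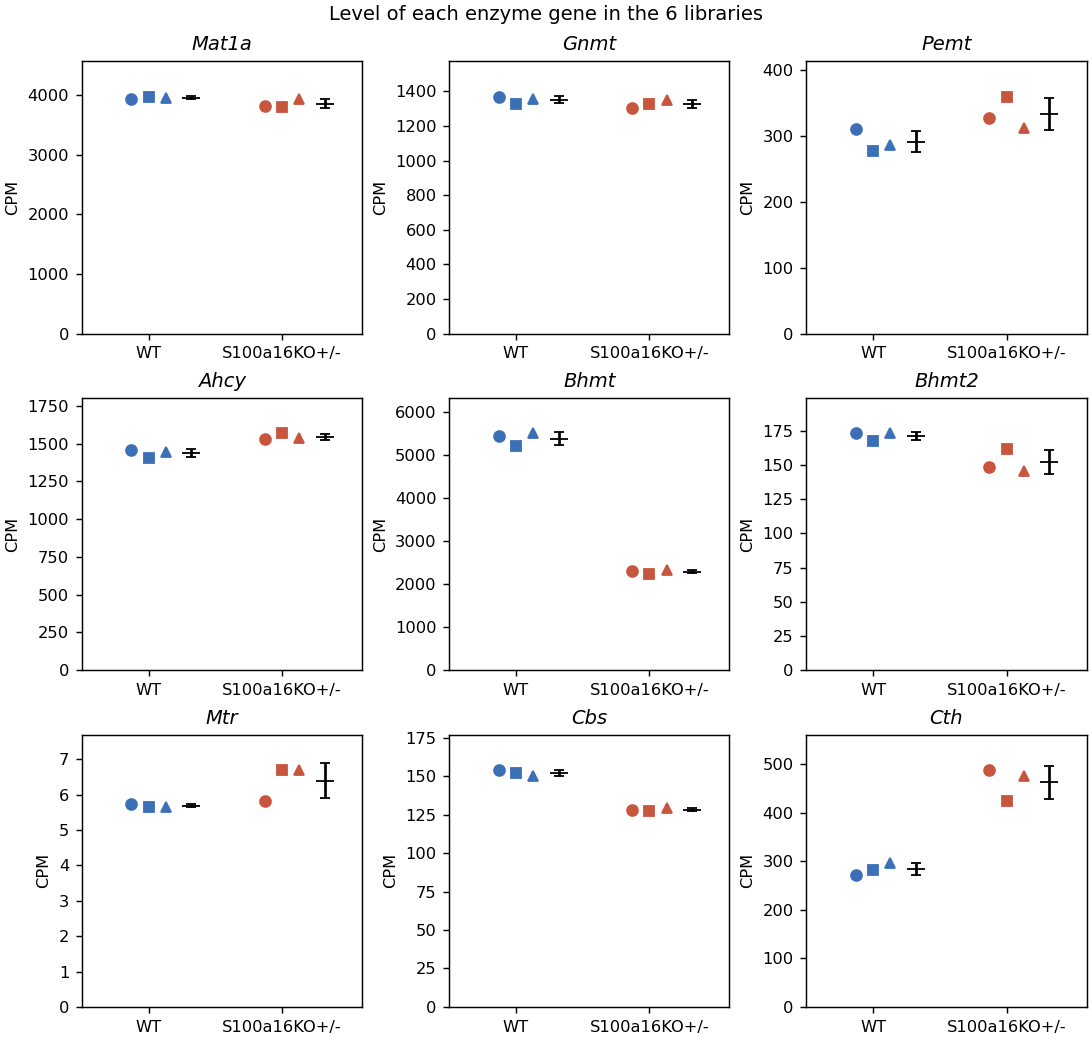
Level in CPM of each of the 9 genes in the 3 WT (blue) and 3 S100a16KO+/- (red) libraries, with circles, squares and triangles for replicates 1, 2 and 3 and black bars for mean ± SD; every axis starts at 0. *Bhmt* is at 5215 to 5505 CPM in WT and at 2247 to 2325 CPM in S100a16KO+/- hepatocytes, *Cth* at 271.8 to 296.4 and 423.3 to 487.5 CPM, and the genotypes overlap for *Mat1a* and *Gnmt*.

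Among the transcripts of the remethylation enzymes, that of the betaine-dependent enzyme differed most. *Bhmt* (ENSMUSG00000074768) had 5434, 5215 and 5505 CPM in the WT libraries and 2309.9, 2247 and 2325 CPM in the S100a16KO+/- libraries. Every S100a16KO+/- library was thus below the lowest WT library, and the spread within a genotype was small, with a coefficient of variation of 2.81% and 1.81%. The means were 5385 ± 151.0 and 2294 ± 41.5 CPM (SD, n = 3 each). The level fell by 57.4% (95% interval of the change from -60.0% to -54.6%). On the log2 scale this was -1.23 with a standard error of 0.04, and the adjusted p was 6.06e-11. Over 21 alternative settings the log2 fold change of *Bhmt* lay between -1.25 and -1.19.

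Reads of *Bhmt* can be shared with copies of the gene elsewhere in the genome, and 29.8% of its 31-base words occur in other transcripts. *Gm5096*, a retrogene that holds 27.1% of the words of *Bhmt*, had 38190, 42744 and 43528 counts in WT and 18737, 14909 and 19014 in S100a16KO+/- libraries, a log2 fold change of -1.23 (standard error 0.07). The processed pseudogene *Bhmt-ps1*, which holds 15.6% of them, had a log2 fold change of -1.27 (standard error 0.08). Adding both to *Bhmt* left its log2 fold change at -1.23. This value could hardly move, as both copies had far lower counts and nearly the same log2 fold change. The sum does not show which gene the shared reads came from. *Gm15622*, annotated on the opposite strand within *Bhmt*, was at 2.73 ± 0.440 CPM in WT and 1.45 ± 0.381 CPM in S100a16KO+/- libraries (SD, n = 3 each). Its log2 fold change of -0.91 passed the test (adjusted p = 0.0120) but was lost without WT replicate 3 or S100a16KO+/- replicate 1 or 3 (adjusted p of up to 0.0697). The second cDNA strand was marked with dUTP, so the reads keep their strand, but whether the counting used the strand is not given in the sources used here.

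*Bhmt2* (ENSMUSG00000042118), whose product methylates homocysteine from S-methylmethionine rather than betaine, had 173.2, 167.8 and 173.2 CPM in WT and 148.7, 161.9 and 145.7 CPM in S100a16KO+/- hepatocytes. Its values did not overlap between genotypes, and S100a16KO+/- replicate 2 lay nearest to WT. The call on its fall by 0.17 on the log2 scale (standard error 0.05, adjusted p = 0.0354) was lost in each of 5 fits without 1 library, all but the one without S100a16KO+/- replicate 2 (adjusted p from 0.0707 to 0.134). The 95% intervals of the 2 paralogs were far apart, -1.32 to -1.14 for *Bhmt* and -0.29 to -0.06 for *Bhmt2*.

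*Mtr* (ENSMUSG00000021311, chromosome 13 from 12182712 to 12258113, minus strand) encodes the cobalamin-dependent methionine synthase, which remethylates homocysteine from methyl-folate. It was the lowest of the 9 genes, with 392, 398 and 387 counts in WT and 403, 430 and 481 counts in S100a16KO+/- libraries. In CPM these were 5.74, 5.65 and 5.65 against 5.82, 6.69 and 6.68, so that the ranges lay next to each other without overlap. The log2 fold change of 0.17 had a 95% interval from -0.10 to 0.44 (adjusted p = 0.388), or a change from -6.67% to 35.6% of the WT level.

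The 2 enzymes of transsulfuration differed in direction. *Cbs* (ENSMUSG00000024039, chromosome 17 from 31608894 to 31637238, minus strand) encodes cystathionine beta-synthase, which joins homocysteine and serine. It had 154.0, 152.2 and 149.9 CPM in WT and 128.0, 127.4 and 129.4 CPM in S100a16KO+/- hepatocytes. The ranges were narrow and well apart, and the level fell by 15.6%, with an adjusted p of 0.00214 (log2 fold change -0.24, standard error 0.05). In the 6 fits that each left out 1 library the adjusted p was at most 0.0131.

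*Cth* (ENSMUSG00000028179, chromosome 3 from 157894248 to 157925077, minus strand) encodes the enzyme that splits cystathionine to cysteine. WT libraries had 271.8, 281.7 and 296.4 CPM and S100a16KO+/- libraries 487.5, 423.3 and 475.2 CPM. Every S100a16KO+/- library exceeded the highest WT library, the lowest being S100a16KO+/- replicate 2. The means were 283.3 ± 12.4 and 462.0 ± 34.1 CPM (SD, n = 3 each), which is 0.71 on the log2 scale with a standard error of 0.06, and the adjusted p was 8.58e-07. In fits that each left out 1 library the difference lay between 0.66 and 0.76. No 31-base word of *Cth* occurred in another gene's transcripts.

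A second annotated transcript lies within *Cth* on the same strand. *Gm43314* (chromosome 3 from 157894961 to 157897191) covers 2231 bases of an intron of *Cth*, begins directly at the end of a *Cth* exon and includes 0 exonic bases of *Cth*; it was looked at because of this overlap. It had 17.3, 17.3 and 15.6 CPM in WT and 53.3, 56.4 and 51.7 CPM in S100a16KO+/- libraries, higher by 1.68 on the log2 scale with a standard error of 0.07 (adjusted p = 4.17e-10). Its counts were 0.0525 to 0.0637 of those of *Cth* in WT and 0.109 to 0.133 in S100a16KO+/- libraries, with no overlap, a ratio computed after the values were seen. Whether its reads belong to unspliced or alternatively ended *Cth* RNA was not tested.

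**Figure D2:**
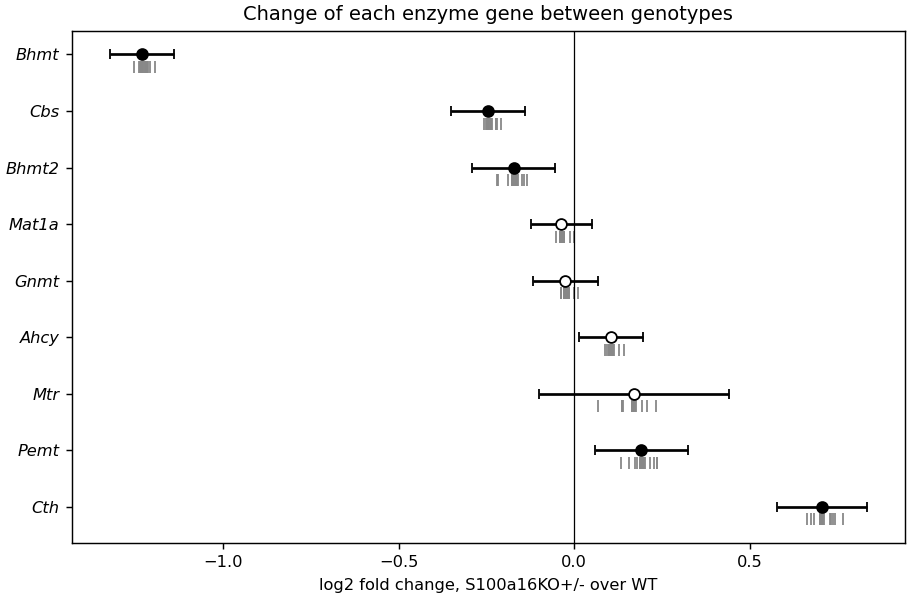
Log2 fold change of each of the 9 genes, S100a16KO+/- over WT, with 95% intervals of the edgeR fit; filled circles have an adjusted p under 0.05, and grey ticks below each are the values under alternative settings. *Bhmt* (-1.23) and *Cth* (0.71) lie apart from the other 7 genes, which range from -0.24 to 0.19, and the ticks of *Mat1a* and *Gnmt* reach both sides of 0.

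The order of the genes was compared on the FPKM scale, which corrects for transcript length. In WT hepatocytes *Mat1a* and *Gnmt* led at 1018 ± 51.0 and 1001 ± 32.1 FPKM (SD, n = 3 each), and did not differ beyond their spread. *Bhmt* followed at 834.9 ± 34.0 FPKM, then *Ahcy* at 457.2, *Pemt* at 123.5, *Cth* at 90.7, *Bhmt2* at 62.0, *Cbs* at 18.1 and *Mtr* at 0.595 FPKM, each apart from its neighbours in all 3 libraries. In S100a16KO+/- hepatocytes *Bhmt*, at 357.9 ± 24.1 FPKM, stood below *Ahcy* at 494.1 ± 18.9 FPKM, with no overlap. *Cth* at 149.0 ± 17.7 FPKM was level with *Pemt* at 141.6 ± 3.41 FPKM. The rank of *Bhmt* by mean FPKM among all genes of the table was 64 in WT and 124 in S100a16KO+/- hepatocytes, and that of *Cth* was 373 and 248. The 9 genes together took 1.25% to 1.33% of a WT library's counts and 0.950% to 1.06% of an S100a16KO+/- library's.

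Ratios of 2 genes within a library do not depend on how libraries are scaled, and 4 such ratios were compared. The ratio of *Bhmt* to *Mtr*, the betaine and the folate route of remethylation, was 1402, 1368 and 1443 in WT and 589.1, 497.2 and 516.0 in S100a16KO+/- libraries (FPKM ratio). *Cth* to *Cbs* was 4.74, 4.97 and 5.31 in WT and 10.2, 8.91 and 9.86 in S100a16KO+/- libraries. *Gnmt* to *Pemt* was 7.72, 8.36 and 8.25 against 6.98, 6.43 and 7.57. In each of these 3 ratios the genotypes did not overlap, and each had an exact permutation p of 0.1 (two-sided; 0.133 adjusted over the 4 ratios), which is the smallest p that 3 libraries against 3 allow. The ratio of *Mat1a* to *Mat2a*, the form of the synthetase that prevails outside adult liver and in dedifferentiated hepatocytes, was 77.4 to 86.7 in WT and 77.1 to 85.8 in S100a16KO+/- libraries and overlapped (exact permutation p = 1).

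**Figure D3:**
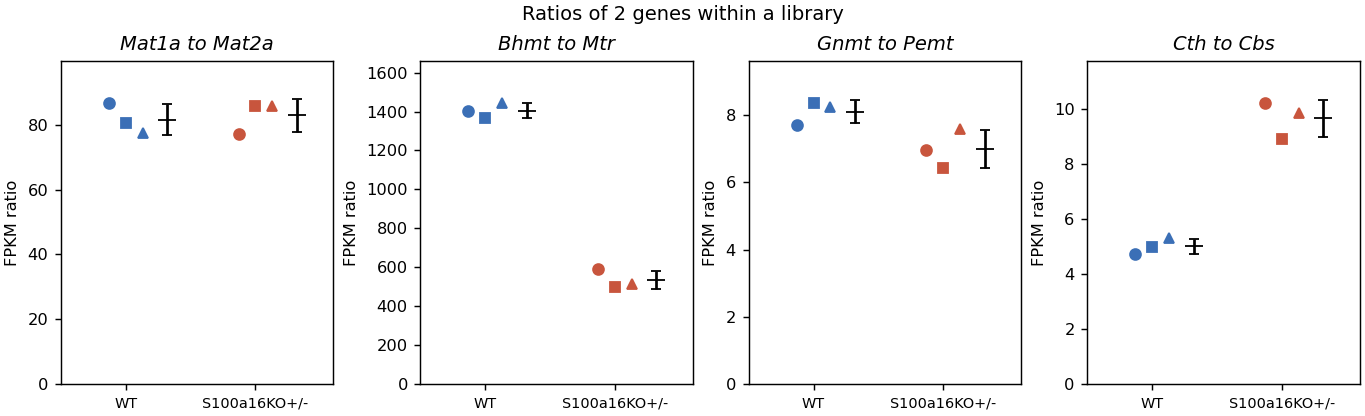
Ratios of the FPKM values of 2 genes in each WT (blue) and S100a16KO+/- (red) library, with circles, squares and triangles for replicates 1, 2 and 3 and black bars for mean ± SD; every axis starts at 0. *Bhmt* to *Mtr* is at 1368 to 1443 in WT and 497.2 to 589.1 in S100a16KO+/- libraries, *Cth* to *Cbs* at 4.74 to 5.31 and 8.91 to 10.2, and *Mat1a* to *Mat2a* overlaps.

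The genes whose levels followed a called member most closely were sought among the 2781 genes that averaged 32 CPM or more, by Pearson's r of log2 CPM over the 6 libraries. Since the libraries share the genotype contrast, such an r includes that contrast and is given as a description. The nearest to *Bhmt* were *Tuba1c*, a tubulin gene (r = 0.9994, log2 fold change -2.18), and *Thrsp*, a lipogenic nuclear protein (r = 0.9994, log2 fold change -1.13). *Cth* was followed by *Serp1*, an endoplasmic reticulum membrane protein (r = 0.9996, log2 fold change 0.73), and *Trp53inp1* (r = 0.9989, log2 fold change 0.79). *Cbs* was followed by *Trib3*, a stress-induced pseudokinase (r = 0.9995, log2 fold change -1.62), and *Fermt2* (r = 0.9985). For *Pemt* they were the metallothionein gene *Mt1* (r = 0.9984) and the fibrinogen gene *Fga* (r = 0.9955), and for *Bhmt2* *Apoc4* (r = 0.9968) and *Acp2* (r = 0.9967).

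Around the 9 enzymes, 9 lists with 87 further genes of methyl group and sulfur amino acid metabolism were examined, of which 84 were tested. Of these, 7 rose, 28 fell and 49 did not pass the test, with a median log2 fold change of -0.13 against 0.01 over all tested genes. That is 41.7% called, against 22.8% of all tested genes. Of the 47 list genes that averaged 32 CPM or more, 24 (51.1%) were called, close to the 48.4% of all genes at that level. Shares by direction were not computed at that level. A call with an absolute log2 fold change of at least 1 was made for 3 of the 84 genes (*Chka*, *Amt* and *Csad*) and for 1 of the 9 members (*Bhmt*), against 3.33% of all tested genes. Among the genes that the KEGG annotation of the table places in cysteine and methionine metabolism, a set added after the values were seen, 7 rose and 11 fell of 37 tested genes that are not members (18 of these genes are also in the lists here). This is 48.6% called, against the 22.8% of all tested genes and the 48.4% of those at 32 CPM or more.

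In the list of cysteine, taurine, glutathione and sulfide genes, 8 of 12 tested genes fell and 2 rose, with a median log2 fold change of -0.32. The share called in this list was 83.3%, against 22.8% of all tested genes. Of its 10 genes that averaged 32 CPM or more, 9 were called, against the 48.4% of all such genes. *Csad*, the cysteine sulfinate decarboxylase of taurine synthesis, had 45.0, 50.6 and 49.2 CPM in WT and 26.05, 20.4 and 21.7 CPM in S100a16KO+/- libraries, 2.12-fold lower (log2 fold change -1.09, standard error 0.09, adjusted p = 5.12e-07). The 2 genotypes were far apart in every library. *Gclc* and *Gclm*, the subunits of the rate-limiting enzyme of glutathione synthesis, fell by 0.21 and 0.26 on the log2 scale. *Suox*, *Tst*, *Ethe1* and *Mpst*, which oxidise or transfer sulfur, had log2 fold changes of -0.61, -0.54, -0.53 and -0.46. *Cdo1*, the cysteine dioxygenase, and *Sqor*, the sulfide quinone oxidoreductase, rose by 0.21 and 0.24, the former not without WT replicate 2 (adjusted p = 0.0753). *Gss* and *Ado* did not pass, and *Slc7a11* was not tested because of low counts. *Gclc*, *Gclm*, *Suox*, *Tst*, *Ethe1*, *Mpst* and *Cdo1* were named after their values were seen.

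In the folate list, 8 of 22 genes fell and 2 rose, or 45.5%, against 22.8% of all tested genes. Of its 9 genes that averaged 32 CPM or more, 6 were called, against the 48.4% of all such genes. *Amt*, the aminomethyltransferase of the glycine cleavage system, had 53.3, 54.9 and 52.15 CPM in WT and 24.5, 22.6 and 25.6 CPM in S100a16KO+/- libraries (log2 fold change -1.14, standard error 0.06, adjusted p = 1.17e-08). Its partners *Gcsh* and *Gldc*, named after their values were seen, had log2 fold changes of -0.33 and -0.24, the latter not called without WT or S100a16KO+/- replicate 3 (adjusted p of up to 0.0627). *Mthfd1l*, a mitochondrial folate enzyme of low level, had 1.76, 2.27 and 2.22 CPM in WT and rose to 3.23, 3.35 and 4.14 CPM in S100a16KO+/- libraries (log2 fold change 0.78, adjusted p = 0.00849; adjusted p = 0.0531 without S100a16KO+/- replicate 3). Of 9 genes of cobalamin handling, *Mmut*, the methylmalonyl-CoA mutase, fell (log2 fold change -0.32), and *Mtrr*, the reductase that keeps the *Mtr* product active, did not pass (-0.35, adjusted p = 0.123). Of the 4 cobalamin genes that averaged 32 CPM or more, 1 was called.

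Among 7 genes of choline oxidation, which supplies the betaine used by *Bhmt*, the choline dehydrogenase gene *Chdh* stood at 124.6 ± 3.18 and 126.2 ± 2.79 CPM (SD, n = 3 each; log2 fold change 0.02, adjusted p = 0.854). Dimethylglycine, the product of betaine use, is oxidised by the product of *Dmgdh*, which rose by 0.17 (adjusted p = 0.0207, but 0.110 at most without WT replicate 2 or 3 or S100a16KO+/- replicate 1), and then sarcosine by those of *Sardh* and *Pipox*, which fell (-0.20 and -0.29). All 7 choline oxidation genes averaged 32 CPM or more, and 3 of them (42.9%) were called, against the 48.4% of all such genes. The CDP-choline route is the other source of phosphatidylcholine beside *Pemt*. In the list that joins this route with the CDP-ethanolamine route, 4 of 10 tested genes fell and 0 rose. That is 40.0% called, against 22.8% of all tested genes. Of the 7 genes of these routes that averaged 32 CPM or more, 2 (28.6%) were called, against the same 48.4%. *Chka*, choline kinase alpha, had the largest fall of all 84 genes, from 41.7, 41.2 and 39.6 CPM in WT to 15.99, 16.7 and 19.2 CPM in S100a16KO+/- libraries (log2 fold change -1.24, standard error 0.08, adjusted p = 3.56e-08). *Pcyt1a*, *Chpt1* and *Selenoi*, named after their values were seen, had log2 fold changes of -0.38, -0.35 and -0.40.

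Of the 6 relatives of the synthetase and hydrolase genes, *Ahcyl1* fell (log2 fold change -0.28, adjusted p = 0.00448), while *Mat2a* was at 62.8 ± 3.84 and 60.3 ± 3.37 CPM (SD, n = 3 each). Of 7 small-molecule methyltransferases, *Inmt* fell (-0.38, adjusted p = 6.39e-05). In methionine salvage and polyamine synthesis 2 genes rose and 3 fell of 9. *Srm*, the spermidine synthase, had the larger rise (0.69, adjusted p = 3.56e-05), and *Amd1*, which decarboxylates S-adenosylmethionine for polyamines, fell (-0.57, adjusted p = 0.000913). At 32 CPM or more, 1 of 3 relatives, 1 of 5 methyltransferases and 1 of 2 salvage and polyamine genes were called. The share was 48.4% among all genes at that level and 22.8% among all tested genes. *Psat1* and *Psph* of serine synthesis, at about 2 CPM, did not pass, and *Phgdh* was not tested.

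**Figure D4:**
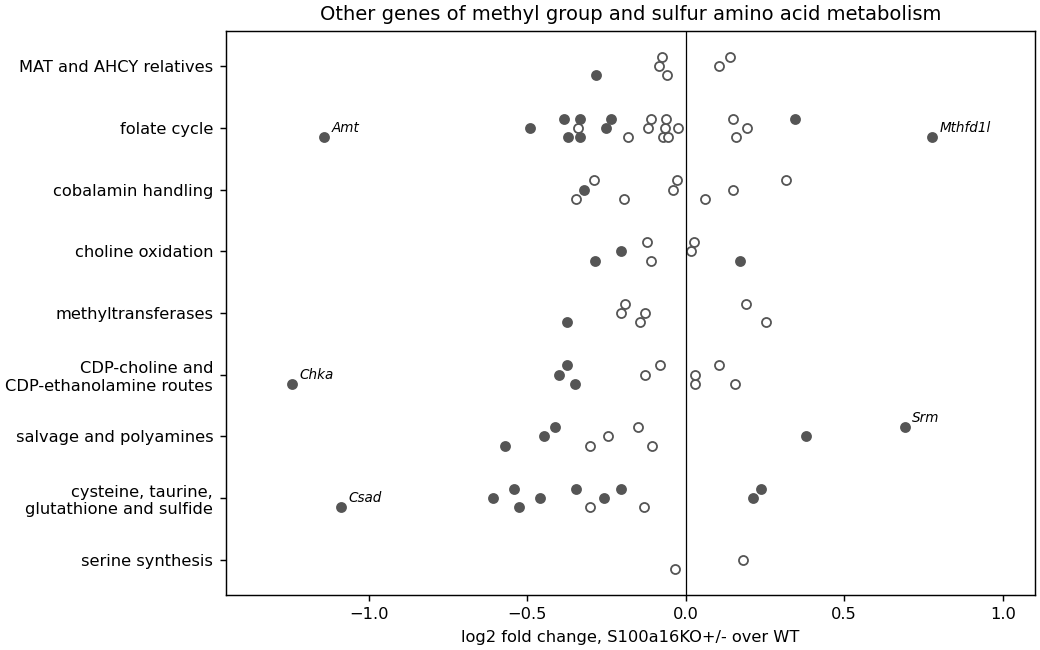
Log2 fold change, S100a16KO+/- over WT, of the 84 tested genes in 9 lists, 1 point per gene (filled where the adjusted p was under 0.05; the height within a list has no meaning). *Chka*, *Amt* and *Csad* lie at -1.24, -1.14 and -1.09, and filled points are more often left of 0 (28) than right of it (7). Of all tested genes, 11.2% were called lower and 11.6% higher.

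Zonation markers were read beside these results, since several of the enzymes differ along the liver lobule. Of 8 periportal markers 5 rose and 0 fell, with a summed level of 5681 to 5931 CPM in WT and 9796 to 9886 CPM in S100a16KO+/- libraries. *Pck1*, of gluconeogenesis, had 2132 to 2238 and 5432 to 5730 CPM of these. All 8 periportal markers averaged 32 CPM or more, a level at which 48.4% of genes were called. Over all tested genes the share called was 22.8%. Of 8 pericentral markers 3 rose and 3 fell (7372 to 7521 and 5692 to 6293 CPM), most of that sum being *Cyp2e1*, which is also in the hepatocyte list. Their part in the levels of the 9 enzymes was not tested.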

How the data were processed

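Per the labels, poly(A) RNA was sequenced as strand-specific pairs with molecular identifiers in the adapters. The authors deposited 1 table with an estimated count, not scaled for library size, and an FPKM value, scaled for length and library size, per gene and library. The submitters' processing notes name cutadapt 1.9, HISAT2 2.0.4, UMI-tools, StringTie 1.3.4d, DESeq2, edgeR and the build mm10. The notes give these no role or order. Counts cluster at 4, with 931 to 1011 genes per library, against 495 to 561 at 3 and 244 to 292 at 5. The cluster at 8 is weaker, with 366 to 408 genes, against 328 to 384 at 7 and 196 to 213 at 9. So 1 fragment appears to be worth about 4 counts, which was read from these clusters alone. If so, count-based precision is lower than the totals imply.

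The members, gene lists and tests were chosen with earlier results of these data known. Counts were rounded and fitted with edgeR 4.0.16 (R 4.3.3; filterByExpr, TMM, robust quasi-likelihood F test, genotype alone, Benjamini-Hochberg over 15957 genes). Intervals use the fit's standard error and degrees of freedom. Alternatives used DESeq2 1.42.0, limma 3.58.1, other scalings and filters, counts divided by 4, a replicate block and leaving out libraries. Named genes are the 9 members; list genes called with an absolute log2 fold change of at least 1, and the most changed called gene per list and direction; the 2 genes most like each called member; and *S100a16*. Others were chosen after their values were seen. On simulated counts edgeR recovered 137 of 191 changed genes among 15506 tested, with 9 false calls. The simulated log2 fold changes were 1 or 2 in either direction, larger than most of those called here. The counts were drawn without the clustering described above. Recovery of smaller changes was therefore not tested. Shared words of 31 bases and overlaps came from GENCODE M21 (GRCm38), where 8 of 9 members had the table's start and end. The result of 1 gene of the lists is not reported here.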

Additional observations from a re-analysis of the deposited data

How the results depend on the processing

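All members but *Mat1a* and *Gnmt* kept their direction in every setting that gave a value, and *Bhmt* and *Cth* kept their call in all 21. *Mat1a* and *Gnmt*, not called, turned to 0.000285 and 0.0116 on the log2 scale with upper-quartile scaling, which raised the median of all genes to 0.04. Members called numbered 5 as reported and 3 to 4 with each library left out. They numbered 3 at an adjusted p under 0.01 and 2 with limma on log2(FPKM + 1) of unfiltered genes. With the study's criterion on the edgeR p (p under 0.05 with at least a 2-fold difference) they numbered 1. Of the genes of the 9 lists, 13 and 3 were called under the last 2 settings. Over all genes, 3643 were called, against 2734 to 3302 with each library left out, 2228 and 2208 with limma on log2(FPKM + 1) and log2(FPKM + 0.1), 1370 without a filter there, 2229 at an adjusted p under 0.01 and 721 with the study's criterion. The cause was not tested. The log2 difference of the *Mat1a* to *Mat2a* ratio was 0.02, and from -0.0144 to 0.0740 with each library left out, turning sign without WT replicate 3 (-0.0144) and without S100a16KO+/- replicate 2 (-0.00287) or 3 (-0.00237).

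Libraries with the same replicate number did not deviate together (r = -0.047, -0.024 and 0.052 for numbers 1, 2 and 3), and WT replicate 1 correlated best with S100a16KO+/- replicate 2 (0.084). With the replicate number as a block, 3082 genes and 3 members were called, *Bhmt2* and *Pemt* no longer among them (adjusted p = 0.0857 and 0.0777), and of the list genes named in the report *Dmgdh* lost its call (0.0616). Removal of 2 libraries, scaling without mitochondrial transcripts and the adding of copies were chosen after seeing the data. *Mtr*, with 387 to 481 counts at what appeared to be about 4 per fragment, had a 95% interval from -0.10 to 0.44. Whether depth set the width of this interval was not tested.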
